A study of Mus musculus with 8 samples.

Results

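The liver's extracellular matrix was followed through 38 genes, and 0 of them passed the test for a difference between livers with hepatocyte C2-AKT and control livers. The members were taken by gene symbol from a list of collagens, crosslinking enzymes, matrix glycoproteins and proteoglycans, matrix proteases and their inhibitors, TGF-beta and thrombospondins, and contractile genes of myofibroblasts. All 38 symbols were found among the 45777 rows of the gene table, and all 38 were among the 15686 genes that passed the count filter. The rule uses no expression value.

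Liver polyadenylated RNA of male C57BL6 mice was sequenced in 4 control and 4 C2-AKT libraries. All mice were 8 weeks old when a high-fat diet began and ate it for 10 weeks, so the obesogenic diet is shared by both groups and no lean liver is among the samples. Control mice carried the genotype label "wild type; C2-AKT (-/-)". C2-AKT mice came from a cross of a ROSA26-C2-AKT line to Alb-Cre, in which the albumin promoter directs Cre to hepatocytes, and the labels do not state the AKT isoform, its species or whether control mice carried Cre. The titles number the libraries 2 to 5 in each group. The number before that one is 2 in every control title and 4 in every C2-AKT title. The labels do not explain it, and what it stands for cannot be told apart from genotype. No label ties a library to an animal of its own, and p-values here measure the spread between libraries.

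In liver, the interstitial matrix of fibrillar collagens lies around portal tracts and central veins, and a loose matrix of basement membrane components fills the space of Disse between hepatocytes and sinusoidal endothelium. Hepatic stellate cells and portal fibroblasts make most of the collagen, and in chronic injury they turn into contractile myofibroblasts driven by TGF-beta. Hepatocytes, the cells in which this Cre acts, secrete plasma fibronectin and type XVIII collagen. In RNA from whole liver, fewer cells of a type and less RNA per cell cannot be told apart.

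Total counts lay between 51.4 M and 63.8 M per library. C2-AKT replicate 5 held transcripts of the pancreas, with 96936 CPM (counts scaled to library size) summed over 10 acinar genes against 8.00 to 24.7 CPM in the other 7 libraries, and the count filter kept 82.8% of its counts. The titles of 5 libraries end in "_1" and that of C2-AKT replicate 5 ends in "_2", whereas control replicate 5 and C2-AKT replicate 2 carry no such suffix, and the labels do not explain this. The 6 hepatocyte markers summed to between 67179 and 94807 CPM. The endogenous transcript of the targeted locus, Gt(ROSA)26Sor, had a log2 fold change of -3.90 in C2-AKT livers (edgeR adjusted p = 0.181), with no overlap between groups.

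The levels of the 38 genes, in TPM (scaled to transcript length and library size), differed widely. Fn1, encoding fibronectin, had the highest mean over all libraries at 349 TPM, followed by Col18a1, which encodes the collagen from which endostatin is cut, at 165 TPM. These 2 genes held 60.8% to 75.1% of the summed TPM of the 38 genes in each library. A mean of at least 10 TPM was reached by 8 members and of at least 1 TPM by 32, and the crosslinker gene Lox was lowest at 0.147 TPM. Fn1 and Col18a1 set most of any sum over the list. The fibrillar collagen gene Col3a1 averaged 10.5 TPM and Tgfb1 4.45 TPM, and some genes used as fibrosis readouts were lower. Col1a1, encoding the alpha1 chain of type I collagen, averaged 1.38 TPM, Acta2, encoding smooth muscle alpha-actin, 1.05 TPM and Timp1, an inhibitor of matrix metalloproteinases, 0.726 TPM.

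**Figure D1:**
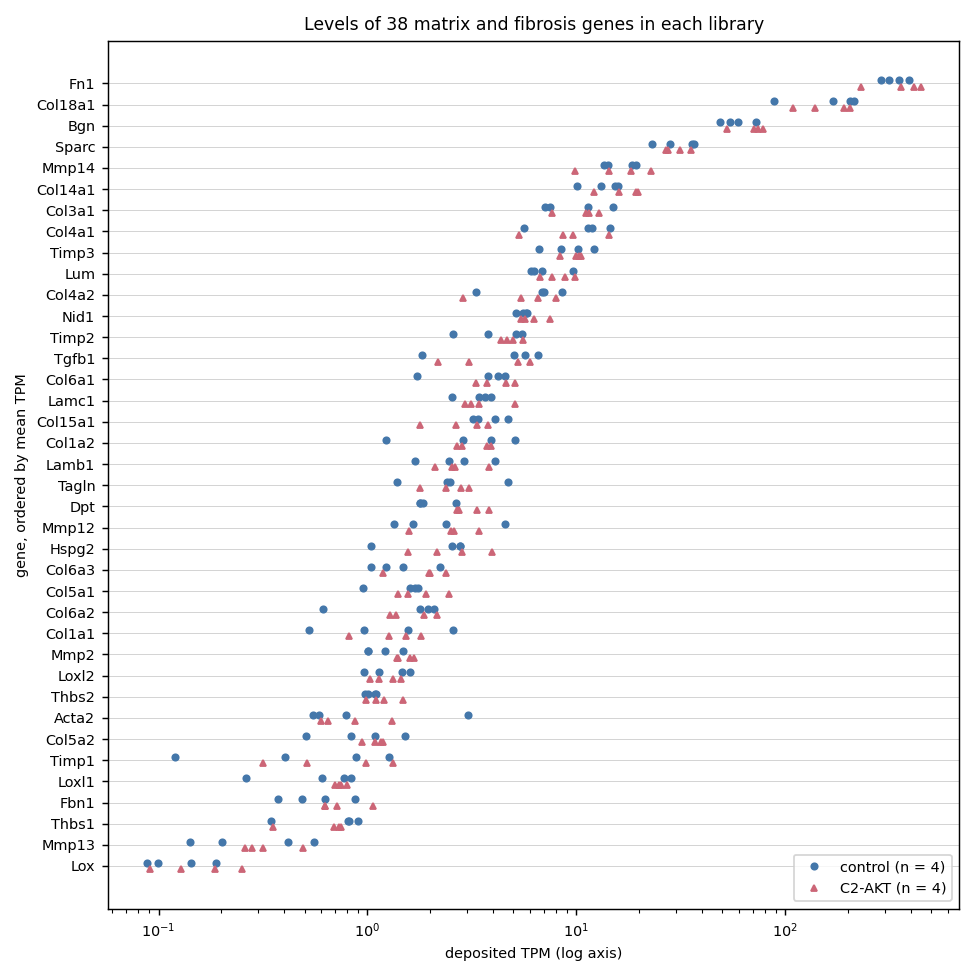
TPM of each of the 38 genes in each library on a log axis, ordered by mean TPM, with control and C2-AKT libraries in separate colours. Fn1 (mean 349 TPM) and Col18a1 (mean 165 TPM) stand above the rest, Lox is lowest (mean 0.147 TPM), and the 2 groups lie over each other in most genes.

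Of the 38 genes, 0 were higher and 0 were lower with C2-AKT in the quasi-likelihood test of edgeR, with Benjamini-Hochberg adjustment over all genes and a threshold of 0.05, where 0.0255% of all 15686 genes were lower and 0% higher. The adjusted p values of the members ran from 0.828 to 0.9999. DESeq2 and limma also called 0 members. At an unadjusted p below 0.05 stood 1 member, Dpt, beside 5.13% of all genes. The median log2 fold change (C2-AKT minus control) of the members was 0.09, with 23 positive and 15 negative, beside a median of -0.01 and 48.1% positive over all genes.

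The width of the intervals shows what these libraries could resolve. For 33 of the 38 genes the whole 95% interval of the log2 fold change lay within 2-fold in either direction, and for 11 it lay within 1.5-fold. Acta2, Dpt, Lox, Tgfb1 and Timp1 were the 5 exceptions to the 2-fold bound, and the interval of Timp1 was the widest, from -1.08 to 1.47. A change that lies within a gene's interval could be present and remain uncalled. All 8 libraries entered each of these values. Without the library that held pancreatic transcripts (C2-AKT replicate 5), 0 members were called, 24 were positive and the median was 0.09.

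**Figure D2:**
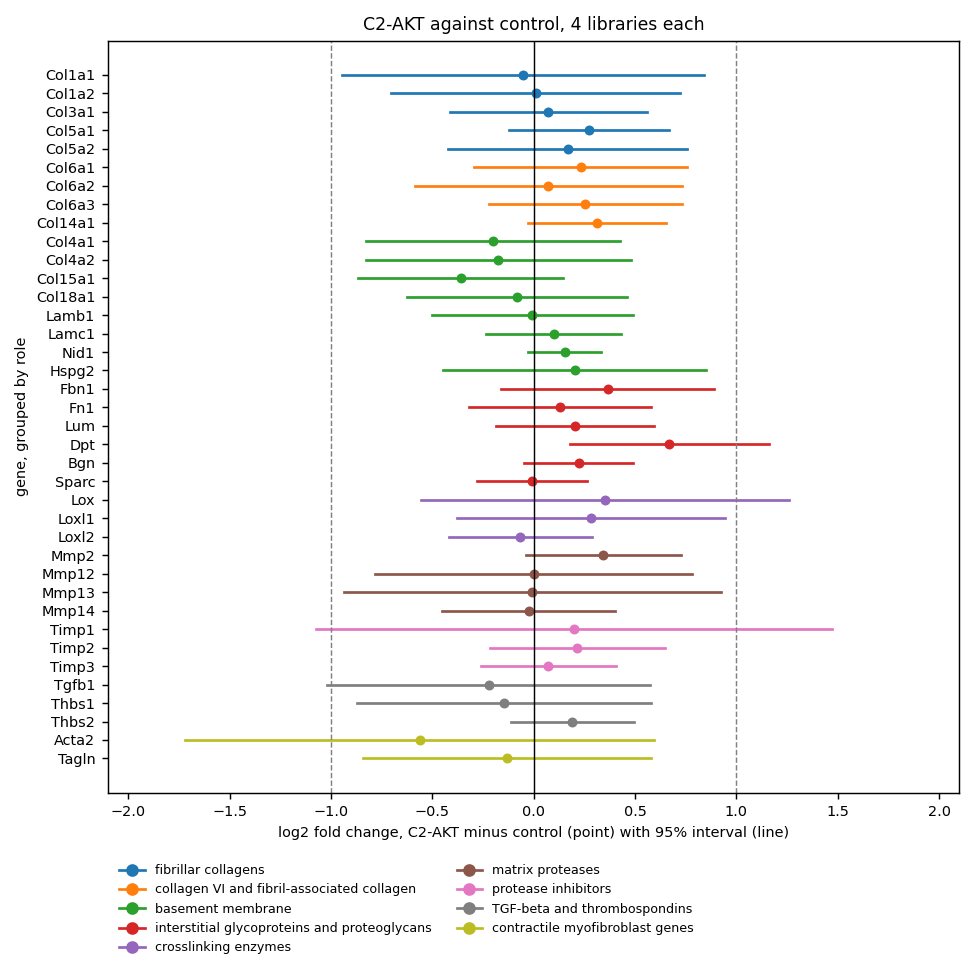
Log2 fold change of each of the 38 genes, C2-AKT minus control, with 95% intervals from edgeR (n = 4 and 4), ordered by role. The estimates run from -0.56 for Acta2 to 0.67 for Dpt, and the interval of Dpt (0.18 to 1.16) is the 1 interval that leaves out 0.

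The fibrillar collagens form the tensile fibres of scar and portal tract. Of 5 members, 0 were called and 4 were positive. Their summed level was 17.4 ± 6.77 TPM in control and 18.4 ± 3.31 TPM in C2-AKT livers (SD, n = 4). Deposited TPM sum to nearly the same total in every library, so the pancreatic transcripts of C2-AKT replicate 5 take up part of its total. For Fn1, C2-AKT replicate 5 had 2323 CPM and 446 TPM, against 1741 CPM and 392 TPM in control replicate 2. The role group sums in TPM are not corrected for this. Values per library are given as TMM-scaled CPM in the order of replicates 2 to 5. Col3a1 (chromosome 1, 45311538 to 45349706), the chain of type III collagen and the most abundant of the group per length, stood at 24.0, 36.3, 48.6 and 24.7 CPM in control and 38.3, 39.6, 33.8 and 28.8 CPM in C2-AKT libraries. The control libraries spanned the whole range and the C2-AKT libraries lay inside it. Its log2 fold change was 0.07, with a 95% interval of -0.41 to 0.56.

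Type V collagen starts fibrils and sets their diameter. Its alpha1 gene Col5a1 stood at 7.71, 8.37, 8.23 and 4.99 CPM in control and 7.96, 8.91, 10.7 and 7.90 CPM in C2-AKT libraries. Control replicate 5 was the low one and the other 7 libraries overlapped, with a log2 fold change of 0.27 (-0.12 to 0.67). Col5a2, the alpha2 gene, stood at 3.18, 5.79, 4.19 and 2.11 CPM in control and 3.88, 4.37, 4.07 and 4.85 CPM in C2-AKT libraries. The C2-AKT values again fell within the control range, and the log2 fold change was 0.17 ± 0.26 (SE). The type I collagen genes, named after their values were seen because they are the usual fibrosis readout, also had a wide range in control livers. Col1a1 ran from 1.98 CPM in control replicate 5 to 8.88 CPM in control replicate 4 and from 3.00 to 5.95 CPM in C2-AKT libraries, and its log2 fold change was -0.05 (-0.95 to 0.84). Col1a2 ran from 4.05 to 15.4 CPM in control and from 8.64 to 11.3 CPM in C2-AKT libraries, with a log2 fold change of 0.01 (-0.70 to 0.72).

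The chains that assemble into one collagen could be compared per length within each library. The TPM of Col1a1 was 0.31 to 0.51 times that of Col1a2 in all 8 libraries, with a mean ratio of 0.42 ± 0.07 in control and 0.41 ± 0.07 in C2-AKT livers (SD, n = 4). For Col4a1 over Col4a2, the ratio was 1.46 to 1.85 (1.69 ± 0.04 and 1.68 ± 0.18), for Col5a1 over Col5a2 1.15 to 2.11, for Col6a1 over Col6a2 2.11 to 2.89 and for Col6a1 over Col6a3 1.56 to 3.06. From lowest to highest library the ratio moved by 1.27-fold for the type IV pair and by 1.37-fold to 1.96-fold for the other 4 pairs. Col4a1 and Col4a2 themselves moved by 2.53-fold and 2.78-fold in CPM. The ratio of Col3a1 to Col1a1 moved further, from 5.84 to 13.6, and its 2 highest values were those of the libraries with no title ending, 13.4 in control replicate 5 and 13.6 in C2-AKT replicate 2.

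Collagen VI makes beaded filaments near cells, and type XIV collagen, a fibril-associated collagen, coats fibres. All 4 members had a positive log2 fold change, 0 were called, and the group summed to 20.3 ± 4.87 TPM in control and 24.6 ± 4.57 TPM in C2-AKT livers. Col14a1 stood at 48.3, 58.3, 56.8 and 40.8 CPM in control and 78.6, 56.9, 65.5 and 52.3 CPM in C2-AKT libraries. C2-AKT replicates 2 and 4 were above every control library and C2-AKT replicates 3 and 5 were not. The log2 fold change was 0.31 (-0.03 to 0.65; unadjusted p = 0.0690, edgeR adjusted p = 0.994). Col6a3, the long alpha3 chain of type VI collagen, stood at 7.67, 9.24, 12.8 and 7.08 CPM in control and 14.4, 9.66, 11.2 and 8.70 CPM in C2-AKT libraries. Its groups overlapped, with C2-AKT replicate 2 highest, and the log2 fold change was 0.25 ± 0.21 (SE). For Col6a1 and Col6a2, the log2 fold changes were 0.23 and 0.07.

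Basement membrane genes encode the sheet-forming type IV collagen, laminin chains, the linker nidogen, the heparan sulfate proteoglycan perlecan and the endostatin-type collagens XV and XVIII. Of 8 members, 0 were called and 3 were positive. The summed level was 205 ± 65.1 TPM in control and 194 ± 54.0 TPM in C2-AKT livers, most of it Col18a1. By library the sum was 251, 249.7, 206 and 112 TPM in control and 131, 226, 251 and 170 TPM in C2-AKT livers, so the libraries with no title ending were the lowest of each group.

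Col18a1 (chromosome 10, 77052178 to 77166530) stood at 706, 677, 568 and 322 CPM in control and 384, 607, 617 and 536 CPM in C2-AKT libraries. Control replicate 5 and C2-AKT replicate 2 were the 2 lowest of all 8, and the groups overlapped. Its log2 fold change was -0.08 (-0.63 to 0.46). Nid1 (chromosome 13, 13437602 to 13512275), which encodes nidogen 1, stood at 19.4, 19.9, 20.5 and 19.7 CPM in control and 21.2, 21.1, 23.8 and 22.2 CPM in C2-AKT libraries. All 4 C2-AKT libraries lay above all 4 control libraries, and Nid1 was the 1 member of 38 with no overlap, beside 2.98% of all genes tested (1.35% with C2-AKT above and 1.63% with C2-AKT below). It was also the steadiest member, with 1.23-fold between its highest and lowest library, where the median member had 2.28-fold. The log2 fold change of Nid1 was 0.15 (-0.03 to 0.33) (unadjusted p = 0.0865, edgeR adjusted p = 0.995). Col15a1 stood at 9.07, 13.3, 9.64 and 12.7 CPM in control and 5.87, 7.31, 9.23 and 12.5 CPM in C2-AKT libraries. C2-AKT replicates 2 and 3 were below every control library and C2-AKT replicate 5 was not, and the log2 fold change was -0.36 (-0.87 to 0.15).

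The type IV collagen genes lie head to head on chromosome 8 and were named, with Hspg2, after their values were seen. Col4a1 (11198423 to 11312889) stood at 43.4, 55.1, 45.4 and 23.5 CPM in control and 21.8, 35.4, 50.01 and 38.4 CPM in C2-AKT libraries. Col4a2 (11312805 to 11449287) stood at 25.9, 31.8, 25.5 and 13.5 CPM in control and 11.5, 23.6, 27.1 and 23.6 CPM in C2-AKT libraries. Both genes were lowest in C2-AKT replicate 2 and next lowest in control replicate 5, and their log2 fold changes were -0.20 ± 0.28 and -0.17 ± 0.29 (SE). The intervals of the genes overlap, so reads near their starts are uncertain where strand was not used in counting. Hspg2, encoding perlecan, stood at 22.6, 22.6, 21.0 and 9.34 CPM in control and 13.9, 22.7, 29.6 and 20.7 CPM in C2-AKT libraries, again with the libraries without an ending lowest, and its log2 fold change was 0.20 (-0.45 to 0.85). For the laminin genes Lamb1 and Lamc1, the log2 fold changes were -0.01 and 0.10.

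The sequences around the starts of Col4a1, Col4a2, Col18a1 and Hspg2 are shown because these 4 genes were among the 6 members that were lower in the libraries with no title ending. The RefSeq promoters (GRCm38.p6) place the start of Col4a1 at 11312826 on the minus strand and that of Col4a2 at 11312805 on the plus strand. These starts are 21 bases apart, and their windows of 250 bases before to 50 after the start share 78 bases, chr8:11312777-11312854. The Col4a1 gene interval reaches 11312889, so the distance and the shared bases hold for these promoter starts. The same 78 bases are given in the direction of each gene, 5′ to 3′, with GGGCGG, the core of the GC box, or its complement in capitals. They are 73.1% G or C.
Col4a2: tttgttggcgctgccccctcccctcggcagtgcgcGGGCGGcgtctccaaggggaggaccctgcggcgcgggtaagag
Col4a1: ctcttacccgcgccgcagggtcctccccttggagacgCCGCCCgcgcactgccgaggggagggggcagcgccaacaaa

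The windows of the first Col18a1 start (chr10:77166481-77166780, minus strand) and of Hspg2 (chr4:137468553-137468852, plus strand) follow, with the GC box core again in capitals, as are CCAAT boxes and any TATAAA box on either strand. They hold 63.3% and 70.3% G or C.
Col18a1: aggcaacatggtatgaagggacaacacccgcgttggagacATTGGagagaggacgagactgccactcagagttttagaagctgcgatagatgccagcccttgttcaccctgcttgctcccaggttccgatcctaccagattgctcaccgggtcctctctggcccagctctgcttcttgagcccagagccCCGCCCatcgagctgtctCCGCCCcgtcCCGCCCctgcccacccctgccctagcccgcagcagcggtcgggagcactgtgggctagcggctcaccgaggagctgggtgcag
Hspg2: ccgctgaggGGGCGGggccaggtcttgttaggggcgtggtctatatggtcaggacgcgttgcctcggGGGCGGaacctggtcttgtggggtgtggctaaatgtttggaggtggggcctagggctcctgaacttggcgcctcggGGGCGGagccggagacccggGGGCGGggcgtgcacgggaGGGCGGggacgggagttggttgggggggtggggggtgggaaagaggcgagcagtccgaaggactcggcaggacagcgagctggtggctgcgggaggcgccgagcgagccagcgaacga
The window of Col3a1 (chr1:45311288-45311587, plus strand) is shown for contrast, with 37.7% G or C. It holds TATAAA and no GGGCGG.
Col3a1: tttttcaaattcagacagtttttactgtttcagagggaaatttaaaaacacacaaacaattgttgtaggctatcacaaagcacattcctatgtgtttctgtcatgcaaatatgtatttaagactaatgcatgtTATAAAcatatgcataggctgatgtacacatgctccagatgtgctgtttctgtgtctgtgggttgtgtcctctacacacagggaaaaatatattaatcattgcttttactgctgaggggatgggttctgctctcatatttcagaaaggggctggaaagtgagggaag
Of the 38 members, 26 have a promoter in the RefSeq table. GGGCGG was found in the windows of 16 of these 26 genes, beside 35.7% of all 32851 promoters. CCAAT was found in 10 (37.4% of all promoters) and TATAAA in 5 (13.6%), counting a gene once where any of its windows holds the letters. The shares of all promoters count each window on its own, with 32851 promoters for 27025 genes, so they are not the same measure. All motifs were searched on both strands, and a match describes the letters of the window and no more.

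Interstitial glycoproteins and proteoglycans bind collagen and cells to each other. Of 6 members, 0 were called and 5 were positive, with sums of 435 ± 42.4 TPM in control and 474 ± 92.5 TPM in C2-AKT livers that were mostly Fn1. Fn1 (chromosome 1, 71585473 to 71653280) stood at 1741, 1562, 1292 and 1524 CPM in control and 1138, 1542, 1690.3 and 2323 CPM in C2-AKT libraries. The C2-AKT libraries held both the lowest value, in replicate 2, and the highest, in replicate 5, which is also the library with pancreatic transcripts. Its log2 fold change was 0.13 (-0.32 to 0.58).

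Dpt (chromosome 1, 164796663 to 164824274) encodes dermatopontin, a small protein of collagen fibrils. It stood at 1.77, 2.63, 1.79 and 2.00 CPM in control and 4.06, 2.64, 2.44 and 3.87 CPM in C2-AKT libraries. C2-AKT replicates 2 and 5 were above every control library, C2-AKT replicate 3 was above the highest control library only slightly (2.636 against 2.625 CPM), and C2-AKT replicate 4 was below it. At 0.67 its log2 fold change was the highest of the members, with a 95% interval of 0.18 to 1.16 (unadjusted p = 0.0127, edgeR adjusted p = 0.828). Bgn, encoding the small leucine-rich proteoglycan biglycan, stood at 76.3, 83.3, 103 and 74.3 CPM in control and 107, 100.1, 100.4 and 85.9 CPM in C2-AKT libraries. Control replicate 4 lay among the C2-AKT libraries, and the log2 fold change was 0.22 (-0.05 to 0.49). Log2 fold changes were 0.37 for Fbn1, the fibrillin of elastic microfibrils, 0.20 for Lum, encoding the proteoglycan lumican, and -0.01 for Sparc, encoding osteonectin.

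**Figure D3:**
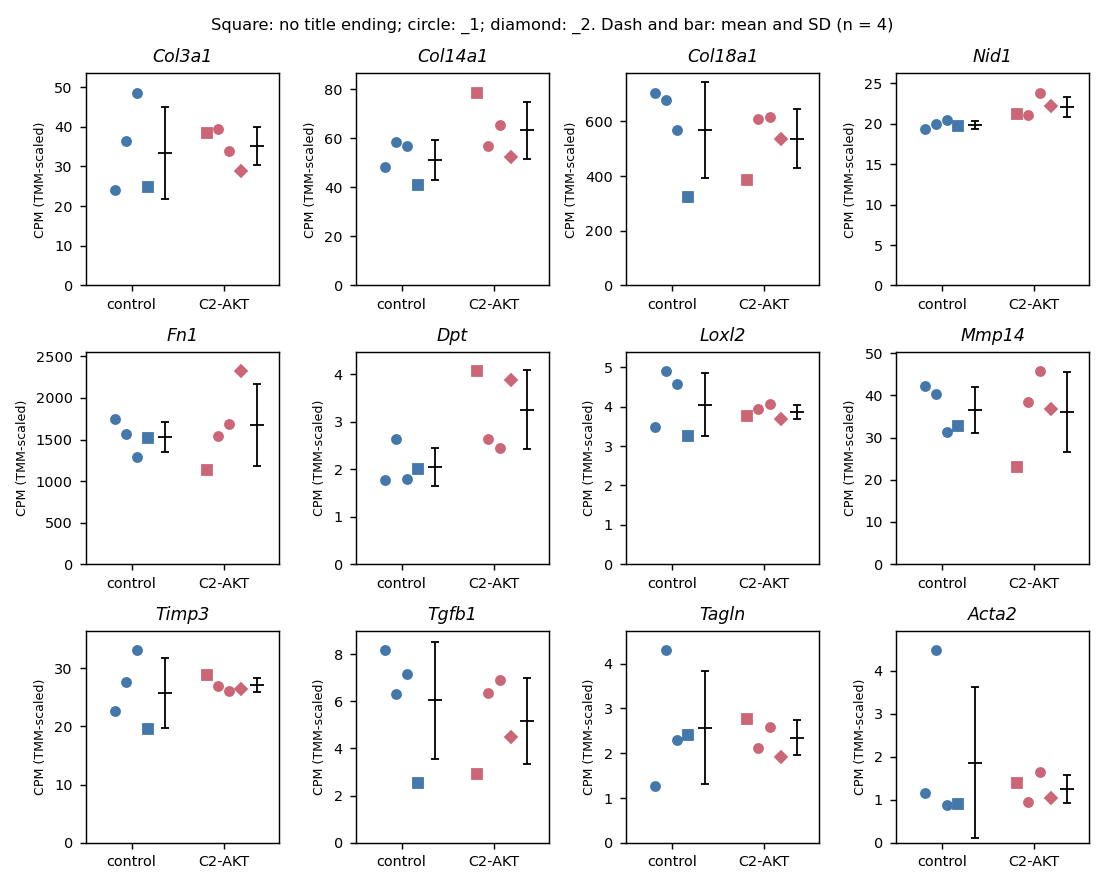
TMM-scaled CPM of 12 members in each library, with the mean and SD of each group (n = 4) and the marker shape giving the title ending. Nid1 shows no overlap between groups, whereas Col18a1, Tgfb1 and Mmp14 have a library without an ending (square) as their lowest C2-AKT value.

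The crosslinking enzymes oxidise lysines of collagen and elastin. Of 3 members, 0 were called and 2 were positive, and they summed to 2.04 ± 0.552 TPM in control and 2.14 ± 0.218 TPM in C2-AKT livers. Loxl2 stood at 3.48, 4.91, 4.57 and 3.26 CPM in control and 3.76, 3.95, 4.07 and 3.70 CPM in C2-AKT libraries. Loxl1 stood at 1.17, 1.61, 1.503 and 0.556 CPM in control and 1.55, 1.37, 1.40 and 1.58 CPM in C2-AKT libraries. In both genes the C2-AKT values lay inside the control range, and the log2 fold changes were -0.07 ± 0.16 and 0.28 ± 0.30 (SE). Lox, with 14 to 39 counts per library, stood at 0.263, 0.537, 0.285 and 0.461 CPM in control and 0.279, 0.358, 0.498 and 0.844 CPM in C2-AKT libraries, and its log2 fold change was 0.35 (-0.56 to 1.26). C2-AKT replicate 5 was highest and the groups overlapped.

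Matrix proteases cleave collagens and other matrix proteins. Of 4 members, 0 were called and 1 was positive, with sums of 20.4 ± 2.01 and 20.7 ± 6.06 TPM. Mmp14, the membrane-anchored collagenase that activates pro-MMP2, was the most abundant per length and stood at 42.3, 40.3, 31.3 and 32.7 CPM in control and 23.1, 38.5, 45.7 and 36.7 CPM in C2-AKT libraries. The lowest and the highest values were both in C2-AKT libraries, replicates 2 and 4, and the log2 fold change was -0.02 (-0.45 to 0.40). Its substrate gene Mmp2, encoding gelatinase A, stood at 1.86, 2.15, 2.66 and 2.05 CPM in control and 3.06, 2.86, 2.28 and 2.90 CPM in C2-AKT libraries. C2-AKT replicates 2, 3 and 5 lay above every control library and C2-AKT replicate 4 did not, with a log2 fold change of 0.34 (-0.04 to 0.72; unadjusted p = 0.0711). Mmp12, the macrophage elastase, spanned 2.78 to 9.59 CPM in control and 3.85 to 6.53 CPM in C2-AKT libraries, and Mmp13, an interstitial collagenase, 0.230 to 0.870 and 0.433 to 0.694 CPM. Their log2 fold changes were -0.000756 and -0.0059.

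The tissue inhibitors of metalloproteinases block these enzymes. All 3 members were positive, 0 were called, and they summed to 14.3 ± 4.23 and 15.5 ± 1.80 TPM. Timp3, which is bound to the matrix, stood at 22.7, 27.6, 33.1 and 19.5 CPM in control and 28.8, 26.9, 26.1 and 26.4 CPM in C2-AKT libraries. Timp2 stood at 7.88, 10.7, 11.6 and 5.87 CPM in control and 9.76, 10.1, 10.6 and 11.4 CPM in C2-AKT libraries. The C2-AKT libraries lay inside the control range for both, and the log2 fold changes were 0.07 ± 0.15 and 0.22 ± 0.19 (SE). Timp1 had only 4 to 42 counts per library. It ran from 0.0768 CPM in control replicate 5, where it had 4 counts, to 0.665 CPM in control replicate 4. This 8.66-fold span was the widest of the members and rests on low counts. In C2-AKT libraries Timp1 ran from 0.216 to 0.633 CPM. The 3 genes overlap the intervals of Syn1, Cep295nl and Syn3, and without stranded counting their reads could include those of the neighbours.

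TGF-beta 1 is the main fibrogenic cytokine, and thrombospondins are matricellular proteins, of which thrombospondin 1 can release TGF-beta from its latent form. Of 3 members, 0 were called and 1 was positive, with sums of 6.54 ± 2.24 and 5.96 ± 1.90 TPM. Tgfb1 (chromosome 7, 25687002 to 25705077) stood at 8.18, 6.32, 7.17 and 2.51 CPM in control and 2.93, 6.36, 6.92 and 4.501 CPM in C2-AKT libraries. The 2 libraries without a title ending were lowest and the groups overlapped, with a log2 fold change of -0.22 (-1.02 to 0.58). Thbs2 stood at 3.42, 3.77, 3.35 and 4.07 CPM in control and 4.43, 3.63, 4.64 and 3.96 CPM in C2-AKT libraries, with a log2 fold change of 0.19 (-0.11 to 0.49), and Thbs1 had -0.15 (-0.87 to 0.58). The Tgfb1 window (chr7:25686752-25687051, plus strand, 77% G or C) is shown because the gene had the most negative log2 difference of the members called between title endings, with GGGCGG on either strand in capitals.
Tgfb1: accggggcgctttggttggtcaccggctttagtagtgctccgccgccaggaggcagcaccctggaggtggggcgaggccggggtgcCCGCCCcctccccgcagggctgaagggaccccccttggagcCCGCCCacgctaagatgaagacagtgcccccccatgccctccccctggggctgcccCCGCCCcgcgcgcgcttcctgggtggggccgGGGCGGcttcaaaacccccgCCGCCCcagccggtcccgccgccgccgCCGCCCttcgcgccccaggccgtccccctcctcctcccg

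Acta2 and Tagln encode contractile proteins of smooth muscle that activated stellate cells also make. Both were negative, 0 were called, and they summed to 3.99 ± 2.53 TPM in control and 3.37 ± 0.860 TPM in C2-AKT livers. Tagln, encoding transgelin, stood at 1.28, 4.31, 2.29 and 2.40 CPM in control and 2.76, 2.11, 2.58 and 1.93 CPM in C2-AKT libraries. Acta2 (chromosome 19, 34240336 to 34255585) stood at 1.17, 4.48, 0.886 and 0.902 CPM in control and 1.38, 0.941, 1.64 and 1.04 CPM in C2-AKT libraries. Control replicate 3 was the highest library for both genes, and the groups overlapped. The log2 fold changes were -0.13 (-0.84 to 0.58) and -0.56 (-1.72 to 0.59), and that of Acta2 was 0.35 without control replicate 3. Control replicate 3 also held the highest sums of the cholangiocyte (43.8 CPM, against 23.9 to 40.5 CPM elsewhere) and mesothelial markers (8.37 CPM, against 0.863 to 5.58 CPM), and the highest Myh11, the smooth muscle myosin, at 3.70 CPM against 0.806 to 2.25 CPM. The full smooth muscle list of 6 genes summed to 107 CPM in that library, within the 75.5 to 118 CPM of the others. The part of these cell types in the Acta2 value was not tested. Tagln overlaps Pcsk7 and is uncertain without stranded counting.

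The members also varied by library within each group. Control replicate 5 was the lowest library for 21 of the 38 genes and the highest for 0, and the median deviation of the members from their own mean over all libraries was -0.47 (log2) in that library. Control replicate 3 was highest for 11 genes, and control replicate 4 and C2-AKT replicate 4 for 8 each. In the other 7 libraries the median deviation lay between -0.17 and 0.24. The libraries with no title ending, control replicate 5 and C2-AKT replicate 2, were the 2 lowest of all 8 for 8 members. C2-AKT replicate 2 was also the highest library for 6 members and the lowest for 5, with a median deviation of 0.01.

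**Figure D4:**
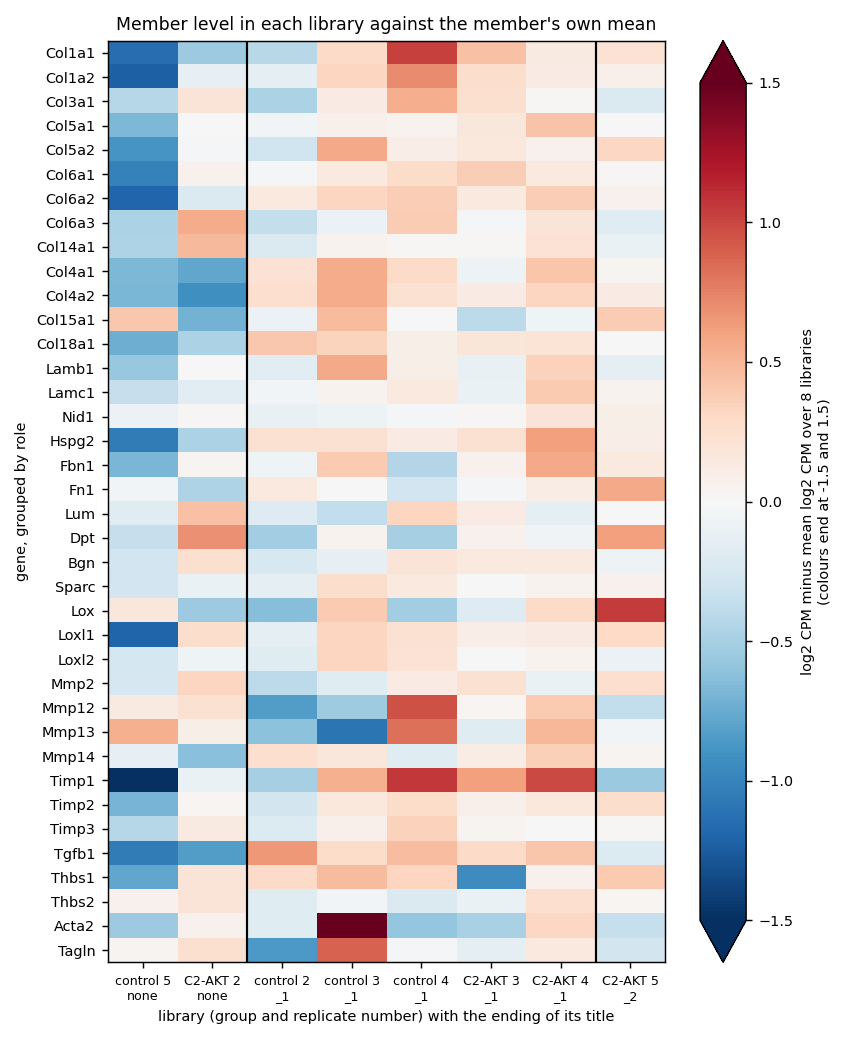
Heatmap of the log2 deviation of each of the 38 genes from its own mean over the 8 libraries, one column per library. Vertical lines set the libraries apart by title ending. The median over the genes, which is not drawn, was lowest in control replicate 5 (-0.47) and highest in control replicate 3 (0.24).

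Because control replicate 5 and C2-AKT replicate 2 were the 2 lowest libraries for 8 members, the title ending was compared directly. This comparison was added after seeing the data. Values of the members prompted it, so their counts and p-values describe the pattern and are no independent test of it. With genotype as a term in edgeR, the 2 libraries without an ending were set against the 5 ending in "_1", and C2-AKT replicate 5, alone in its ending, did not inform the difference. Of the 38 members, 6 were lower and 0 higher in the libraries without an ending, beside 8.31% of all genes lower and 1.99% higher (10.3% in either direction). Of these 6 genes, 4 belong to the basement membrane group. Col6a2, not yet given by library, stood at 4.04, 4.60, 4.72 and 1.61 CPM in control and 3.15, 4.05, 4.72 and 3.83 CPM in C2-AKT libraries, with the libraries without an ending lowest. Tgfb1 fell by 1.36 ± 0.16 on the log2 scale (SE; edgeR adjusted p = 0.00280). The log2 differences were -1.09 ± 0.12 for Col4a2 (0.00238), -1.08 ± 0.13 for Hspg2 (0.00313), -1.003 ± 0.155 for Col4a1 (0.00640), -0.85 ± 0.13 for Col18a1 (0.00582) and -0.95 ± 0.23 for Col6a2 (0.0393), with edgeR adjusted p in parentheses. Over the members the median was -0.32 with 31 of 38 negative, beside a median of -0.0010 and 50.1% negative over all genes. Without control replicate 5, only Col4a2 of the 38 was called, beside 178 of 15953 genes lower. Without C2-AKT replicate 2, 8 members were called lower, beside 716 of 15918 genes.

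Transcript GC content moved with this difference. Among the 13343 genes with a transcript in the GENCODE annotation, the Spearman correlation across genes between GC content of the longest transcript and the log2 difference by title ending was -0.53. It was -0.63 over the 38 members, and genes are not independent replicates. By GC class, the median log2 difference over all genes was 0.18 below 45%, 0.05 from 45% to 50%, -0.13 from 50% to 55%, -0.33 from 55% to 60% and -0.59 from 60% upward. The medians of the members in those classes were 0.09 (4 genes), -0.20 (7), -0.26 (15), -0.78 (8) and -0.96 (4). The 6 called members had a median GC content of 59.1% (52.5% to 60.9%) and the other members 52.5%, and all 6 have GGGCGG in a promoter window, as do 10 of the other 20 members with one. The part of GC content in the result was not tested. Against the genotype difference, the same correlation was -0.16 over all genes and -0.10 over the members.

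**Figure D5:**
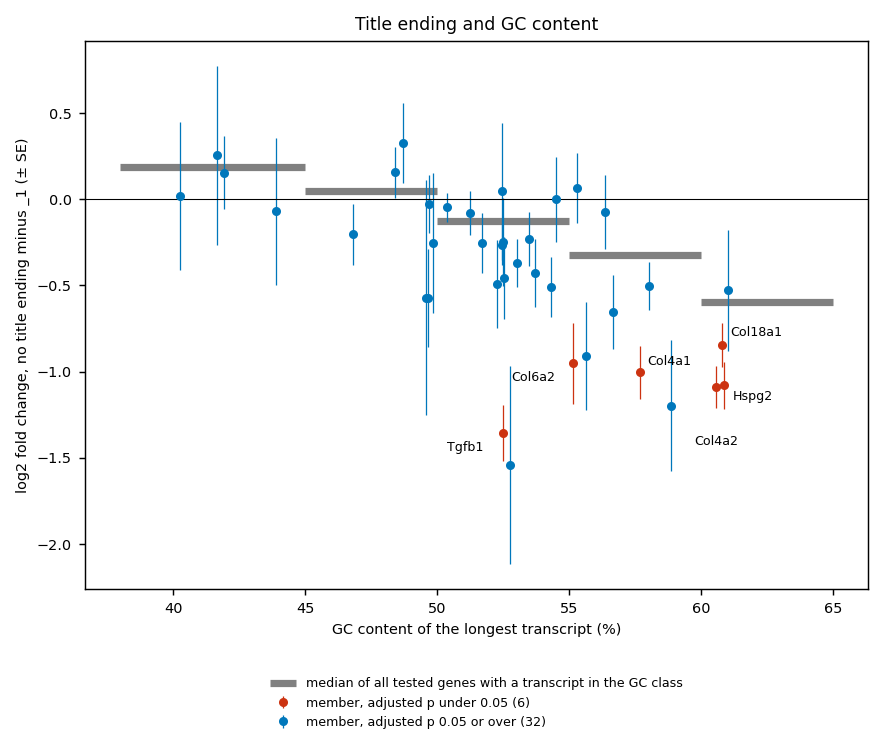
Log2 difference between libraries with no title ending and libraries ending in "_1" (± SE) against GC content of the longest transcript for the 38 members, with grey bars for the median of all genes in each GC class. The 6 called members lie between -0.85 and -1.36, and the medians of all genes fall from 0.18 below 45% GC to -0.59 from 60% upward.

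The genotype comparison was repeated with the ending taken into account. In the fit with the ending as a term, C2-AKT replicate 5, alone in its ending, did not inform the genotype difference. With the ending as a term, 0 members were called, 27 were positive, and Bgn, Col14a1, Col15a1, Col5a1, Dpt and Hspg2 had an unadjusted p below 0.05 (6 of 38, beside 8.75% of all genes in the same fit), with 0.472 as the lowest edgeR adjusted p (Col5a1). Among the 5 libraries ending in "_1", 3 control and 2 C2-AKT, 0 members were called, 21 were positive and the median was 0.04. Thbs1 had an unadjusted p below 0.05 there, as had 7.83% of all genes.

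Of 144 other matrix genes in 5 lists, 0 of those tested were called in edgeR. Other collagens had 6 positive and 6 negative of 12 tested (median log2 fold change 0.01). Collagen biosynthesis genes, which hydroxylate, fold and trim the chains, had 9 positive and 12 negative of 21 (-0.03). Other glycoproteins and proteoglycans had 25 positive and 12 negative of 37 (0.13). Other proteases, inhibitors and crosslinkers had 14 positive and 7 negative of 21 (0.07), and TGF-beta and PDGF signalling genes 24 and 10 of 34 (0.07). The number of genes with an unadjusted p below 0.05 was 0, 2, 3, 1 and 4 in these lists, in that order, beside 5.13% of all genes tested.

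Ccn2, a matricellular protein gene induced by TGF-beta and YAP, had the smallest unadjusted p of the signalling list. It stood at 1.24, 1.90, 2.39 and 1.32 CPM in control and 8.01, 5.84, 5.34 and 4.35 CPM in C2-AKT libraries, without overlap, and its log2 fold change was 1.78 ± 0.26 (SE; edgeR adjusted p = 0.0830). Ddr2, a collagen receptor kinase, followed with 0.38 ± 0.14 (adjusted p = 0.893). Adamts5, an aggrecanase, stood at 0.884, 2.05, 1.58 and 1.80 CPM in control and 3.30, 2.17, 2.85 and 2.12 CPM in C2-AKT libraries, also without overlap, with a log2 fold change of 0.72 ± 0.27 (adjusted p = 0.882). Adamts9, a protease of the same family, had 0.66. No overlap with C2-AKT above, as in Ccn2 and Adamts5, was seen in 1.35% of all genes tested. Ogn, encoding the proteoglycan osteoglycin, had 0.88 ± 0.30, and Fras1, a basement membrane protein, 0.49 ± 0.20. Adamts14, a procollagen N-propeptidase, had -0.82 ± 0.29, and P3h2, a prolyl 3-hydroxylase, 0.61 ± 0.25. Among other collagens, Col7a1 had a log2 fold change of 2.23 ± 1.07 that rested on C2-AKT replicate 5, at 7.42 CPM against 0.174 to 0.652 CPM in the other 7 libraries, and Col5a3 had -0.23 ± 0.17. C2-AKT replicate 5 is the library with pancreatic transcripts, and their part in its Col7a1 was not tested.

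Markers of the cells that make matrix were measured beside the members. The 10 stellate cell markers summed to 310 to 392 CPM in control and 345 to 411 CPM in C2-AKT libraries, with 0 called and 8 positive. Of these sums, the proteoglycan gene Dcn alone held 126 to 150 CPM in control and 135 to 197 CPM in C2-AKT libraries. Dcn and Pdgfrb are also among the other matrix genes above, as are Eln and Mfap4 of the portal fibroblast list. The 8 portal fibroblast markers summed to 4.64 to 9.35 and 7.34 to 9.89 CPM, and the 8 endothelial markers to 243 to 286 and 264 to 310 CPM. The 10 macrophage markers summed to 258 to 330 CPM in control and 261 to 288 CPM in C2-AKT libraries. The 4 islet markers summed to 55.5 CPM in C2-AKT replicate 5 and were at 0 counts in the other 7 libraries, and the 8 adipocyte markers summed to 46.1 to 91.2 CPM in control and 26.3 to 51.4 CPM in C2-AKT libraries. The sums of the stellate, portal fibroblast, endothelial and macrophage lists overlapped between groups, and 0 of their genes were called. Positive log2 fold changes were found in 5 of 6 portal fibroblast, 7 of 8 endothelial and 2 of 10 macrophage genes tested, beside 48.1% of all genes.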

How the data were processed

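Liver RNA of 4 control and 4 C2-AKT libraries was used. The submitters' processing notes name HISAT2 2.1.0, StringTie 2.1.3b, Trimmomatic and bcl2fastq 2.20.0, with the builds GRCm38 and mm10. Settings, the strand of the libraries and the way counts were made were not stated. The authors deposited an estimated count (whole numbers) for each gene and library. The deposited FPKM values are, by their unit, relative to transcript length and sequencing depth, and the deposited TPM values sum to nearly the same total in every library.

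Counts were filtered with filterByExpr, TMM-scaled and tested with edgeR 4.0.16 (quasi-likelihood, two-sided, no covariate, Benjamini-Hochberg over all genes tested, threshold 0.05) in R 4.3.3. Standard errors were obtained as log2 fold change over the root of the F statistic, beside 95% intervals. CPM was used within a gene, and TPM between genes and in the sums over role groups. Marker sums are in CPM. The test was checked on simulated data. Totals of 51.4 M to 63.8 M counts set the counting precision; a count of 0 allows up to 3 counts, for counting error only. Alternatives used DESeq2 1.42.0 and limma 3.58.1. Coordinates and promoters are RefSeq's for GRCm38.p6. GC content is from GENCODE transcripts of GRCm38, which matched 85.1% of the genes tested and all 38 members. Intervals of 15 members overlap another gene and 6 a protein-coding gene.

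The members and lists were chosen with earlier results of these data known. Values in every library are given for the member with the highest mean TPM and the 2 with the smallest unadjusted p in each role group, and up to 2 genes are named from each other list. Further members were named after their values were seen. Same-numbered libraries were not taken as pairs. The 11 marker lists serve as values beside the members.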

Additional observations from a re-analysis of the deposited data

Results flagged for a closer look

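Among 76 groups of 4 libraries (38 genes in both groups), 2 held a library whose gap to its nearest neighbour exceeded Dixon's 95% critical value for 4 samples, as a share of the group's range. Chance gives about 1 in 20 groups. Hspg2 stood at 9.34 CPM in control replicate 5, below the next control library at 21.0 CPM, with a gap of 0.876 of the range. Acta2 stood at 4.48 CPM in control replicate 3, above the next control library at 1.17 CPM, with a gap of 0.922 of the range.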

How the results depend on the processing

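In 21 alternatives, 0 of the 38 members were called between genotypes, with a lowest adjusted p of 0.472. Only 35 members were tested at a mean of at least 1 CPM and 37 on FPKM. The members' median log2 fold change ranged from -0.03 (without control replicate 5) to 0.22 (without control replicate 4), and the positive count from 18 to 30. Over all genes, DESeq2 called 29 higher and 28 lower, library totals alone 1 higher, the title ending as a term 1 higher, and titles ending in "_1" 17 lower. Leaving out 1 library gave 0 to 3 higher and 1 to 16 lower genes. For the title ending, DESeq2 called 11 members lower, beside 6.23% of all genes. Leaving out 1 library with an ending gave from 5 members (without control replicate 2, beside 5.85%) to 7 (without control replicate 4, beside 7.90%). Leaving out a library with no ending left only 1 such library. The members' median difference by title ending was then -0.13 without control replicate 5 and -0.53 without C2-AKT replicate 2. Library totals alone moved the median of all genes to -0.12 there and called 8, beside 13.4%. The cause was not tested.

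Sign changed at least once in 23 members, and 15 kept their sign throughout. With the title ending as a term, log2 fold changes of the other sign were Col1a1 0.0688, Col18a1 0.0138, Lamb1 0.12, Fn1 -0.0676, Sparc 0.000937, Lox -0.0152, Mmp12 0.12 and Mmp13 0.0389. In titles ending in "_1" they were Col1a2 -0.14, Col5a2 -0.0518, Col6a2 -0.0171, Loxl1 -0.0350, Mmp12 0.13, Mmp13 0.24, Mmp14 0.16 and Timp3 -0.0639. On library totals alone they were Lamb1 0.0143, Sparc 0.0180, Mmp12 0.0251, Mmp13 0.0314 and Mmp14 0.0151. By limma-voom they were Col1a1 0.0897, Lamb1 0.0462, Sparc 0.00566, Mmp12 0.13 and Mmp13 0.16. On log2(TPM + 1) they were Col1a1 0.0229, Lamb1 0.0139, Mmp12 0.0779 and Mmp13 0.0163, and on log2(TPM + 0.1) Col1a1 0.0991, Lamb1 0.0277, Mmp12 0.13 and Mmp13 0.11. On log2(FPKM + 1) they were Mmp12 0.0333 and Mmp13 0.00174. With DESeq2 size factors this was Mmp12 0.00437, with DESeq2's own test Mmp12 0.00471 and at a mean of at least 1 CPM Mmp12 0.00206.

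With the replicate block, 0 members were called, as were 0 higher and 4 lower genes, and Col1a1 0.0980, Lamb1 0.0367, Sparc 0.00533, Mmp12 0.13 and Mmp13 0.13 had the other sign. Deviations of same-numbered libraries correlated at -0.13, -0.02, 0.07 and -0.06 for replicates 2 to 5, and 0 of 8 libraries correlated best with their own number.

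Leaving out 1 library gave log2 ranges that crossed 0 for Acta2 (-0.80 to 0.35), Col18a1 (-0.28 to 0.0469), Col1a1 (-0.31 to 0.41), Col1a2 (-0.25 to 0.30), Col3a1 (-0.0579 to 0.31), Col4a2 (-0.37 to 0.0341), Col5a2 (-0.0323 to 0.44), Col6a2 (-0.18 to 0.20), Fn1 (-0.0704 to 0.28), Hspg2 (-0.0221 to 0.37) and Lamb1 (-0.16 to 0.22). They also did so for Lamc1 (-0.0327 to 0.17), Lox (-0.0172 to 0.55), Loxl2 (-0.16 to 0.0366), Mmp12 (-0.21 to 0.45), Mmp13 (-0.25 to 0.34), Mmp14 (-0.16 to 0.14), Sparc (-0.0964 to 0.0825), Tagln (-0.36 to 0.23), Thbs1 (-0.36 to 0.0672), Timp1 (-0.13 to 0.70) and Timp3 (-0.0398 to 0.22).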
